A study of Mus musculus with 4 samples.

Results

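The genes described here were 9 mouse genes of retinoid metabolism and binding, picked by symbol out of 23282 gene symbols listed for each library. They were the retinol receptor gene Stra6, the retinoic acid binding protein genes Crabp1 and Crabp2, the oxidising enzyme genes Rdh10, Dhrs9, Aldh1a1, Aldh1a2 and Aldh1a3, and the breakdown enzyme gene Cyp26b1. Vitamin A reaches cells as retinol, which dehydrogenases oxidise to retinal and aldehyde dehydrogenases of the ALDH1A family oxidise further to retinoic acid. Retinoic acid is carried inside the cell by binding proteins, activates nuclear receptors that control transcription, and is cleared by cytochrome P450 enzymes of the CYP26 family. In skin the pathway is known for its part in keratinocyte differentiation, sebaceous glands and the hair cycle.

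Skin came from adult mice of strain C57BL/6, in 4 groups of 1 library each. The groups were Egr1 knockout skin labelled SDS+HDM extract (KO-labelled HDM), wild-type skin labelled SDS+HDM extract (WT HDM), Egr1 knockout skin labelled SDS (KO-labelled naive) and wild-type skin labelled SDS (WT naive). HDM is house dust mite and SDS is a detergent that breaks the skin barrier; every group carried SDS in its label, so the naive groups were not untouched skin. Per the labels, neck and ear skin was shaved, and 100 mg of cream with HDM was spread 2 times per week for 3 weeks on the HDM animals. The labels name neither the number of animals nor any pooling behind a library, and with 1 library per group a difference between groups has no replicate check. Intervals given below cover the counting of reads only, and reads without molecular identifiers are not independent molecules.

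The files hold log2(x + 1) values of 3′ tags, which are taken near the end of a transcript and are not divided by its length. Reads were recovered from the value that 1 read was worth in each library, and 96.2% to 99.1% of genes with up to 200 reads then lay within 0.1 of a whole read. That value was chosen to bring as many genes as possible this close, so the share is no separate check. The smallest values of x were left out of it. Libraries held 9427595 to 10107315 gene reads. Egr1, the gene named as knocked out, had 3493 reads in KO-labelled HDM skin and 1174 in WT HDM skin, and 3158 reads in KO-labelled naive skin against 1966 in WT naive skin. It was thus higher in the KO-labelled libraries, 2.59-fold under HDM (2.43 to 2.77) and 1.42-fold in naive skin (1.35 to 1.51). Where these 3′ tags lie relative to the disrupted part of the gene was not examined. The values therefore do not bear out the knockout label and do not refute it. Xist, transcribed in females, had 2432 and 2195 reads in the KO-labelled HDM and WT HDM libraries, against 40 and 10 in the KO-labelled naive and WT naive libraries. Ddx3y, a Y-linked gene, had 1 and 1 reads in the same HDM libraries, against 2430 and 1925 in the naive libraries. Sex-linked transcripts therefore split with treatment, and their part and the part of HDM in any difference between HDM and naive skin cannot be told apart. No basal marker out of 9 and no suprabasal keratinocyte marker out of 11 stood at 0 in any library, which fits the label skin but does not show skin alone. Salivary and lacrimal gland markers summed to 8336 and 72655 per 1000000 gene reads in the KO-labelled naive and WT naive libraries. In the KO-labelled HDM and WT HDM libraries they summed to 15.8 and 74.4.

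The KO-labelled naive library also lacked low values. It had reads for 12857 genes, against 16175 in KO-labelled HDM, 16512 in WT HDM and 15524 in WT naive skin. Genes at 0 in the named library alone, with at least 50 reads in the rest, numbered 336 for KO-labelled naive, 4 for KO-labelled HDM, 0 for WT HDM and 5 for WT naive skin. Among genes with 10 to 20 reads in WT naive skin, 64.1% stood at 0 in the KO-labelled naive library, and 2.18% of those with 100 or more reads did. This bears directly on the 4 members with few reads (Dhrs9, Aldh1a2, Aldh1a3 and Stra6), all of which are listed at 0 there, as were 15.3% of 14594 genes with reads in the other 3 libraries. The HDM comparison in WT skin and the genotype comparison under HDM do not use that library.

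**Figure D1:**
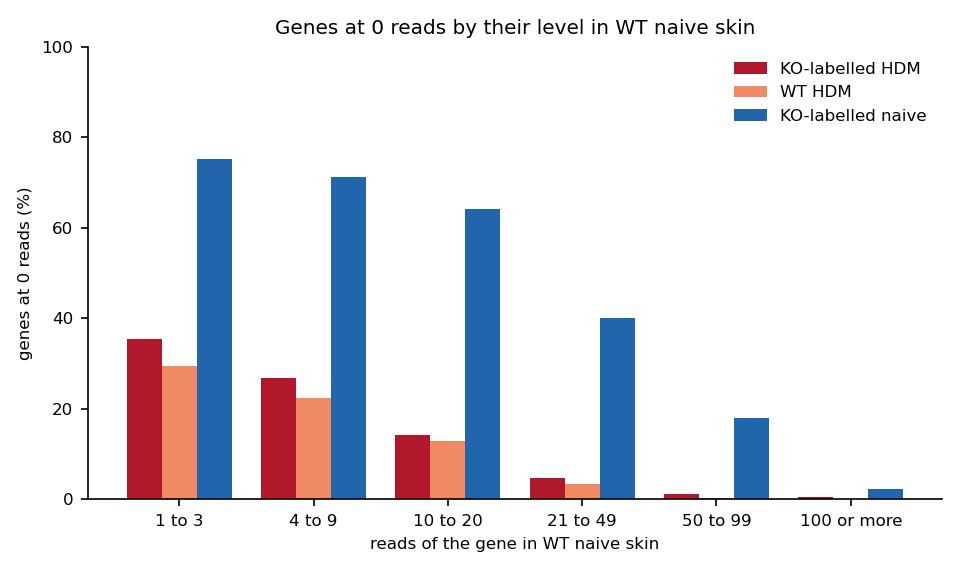
Share of genes at 0 reads (y axis, percent) by their reads in WT naive skin (x axis, read ranges), 1 bar each for the KO-labelled HDM, WT HDM and KO-labelled naive libraries. The KO-labelled naive bars stand at 75.2%, 71.2% and 64.1% in the 3 lowest ranges and above the HDM bars in every range.

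In HDM skin the retinoid genes did not move one way. Crabp2 was higher in HDM skin than in naive skin of both genotypes, Aldh1a1 and Cyp26b1 were lower, and Rdh10 stayed within counting error. The members with few reads, Dhrs9 and Aldh1a3 above all, had more reads in both HDM libraries than in either naive library. Between genotypes, Aldh1a1 and Crabp1 had more reads in the KO-labelled library of each treatment, and Crabp2 and Cyp26b1 were higher under HDM and lower in naive skin. Genes were set against the rest of the transcriptome where their mean log2 value lay above the median of all genes, 5.10, which 11624 genes did. Of the members, 5 passed (Crabp1, Crabp2, Rdh10, Aldh1a1 and Cyp26b1) and 4 did not (Dhrs9, Aldh1a2, Aldh1a3 and Stra6).

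**Figure D2:**
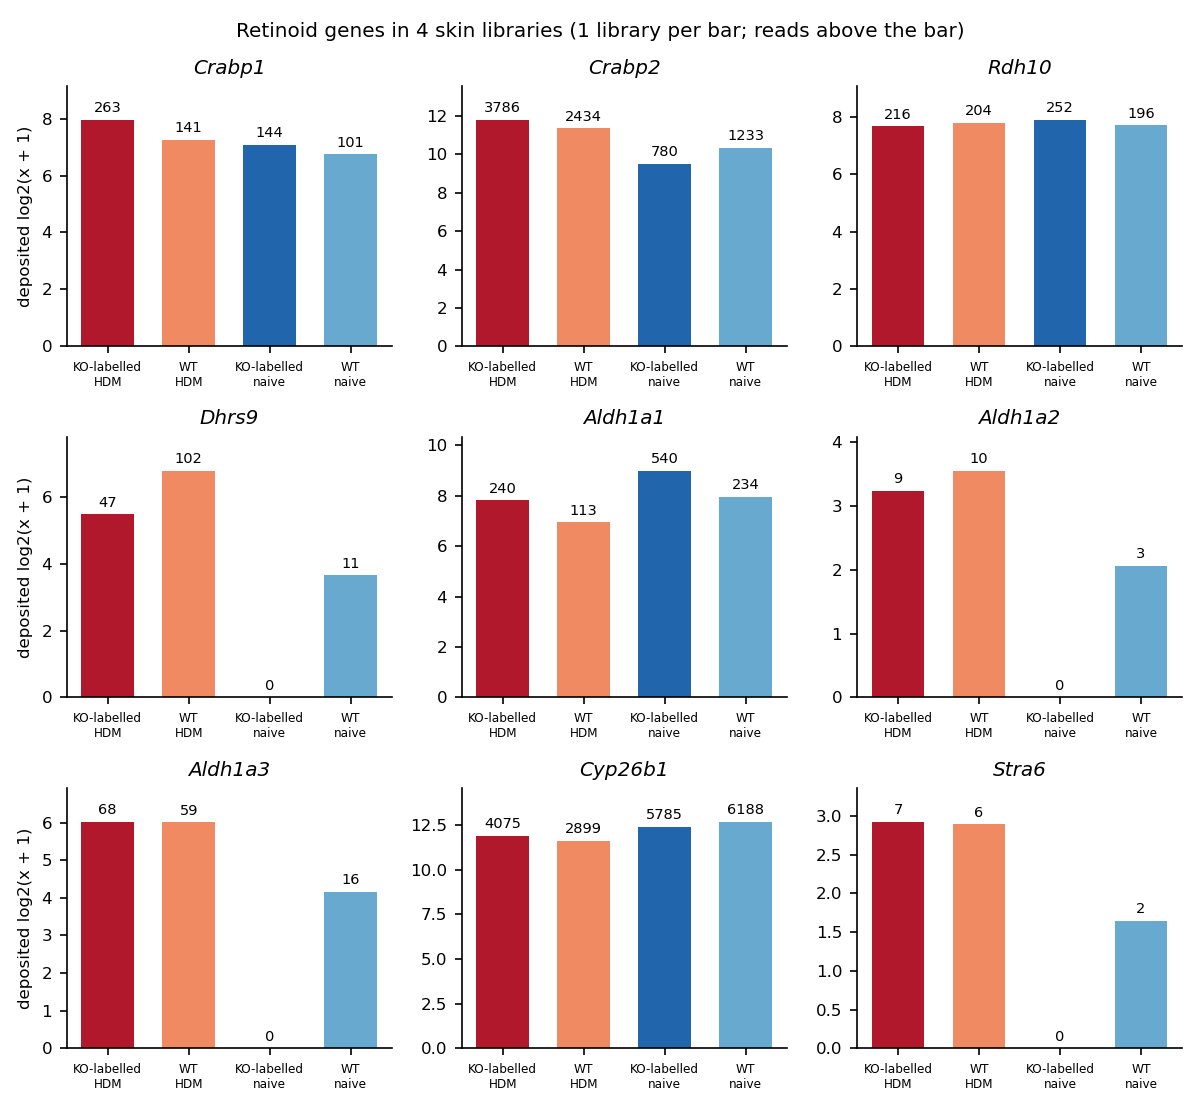
Deposited log2(x + 1) values (y axis) of the 9 genes in the KO-labelled HDM, WT HDM, KO-labelled naive and WT naive libraries (x axis), 1 library per bar, with recovered reads above each bar. Dhrs9, Aldh1a2, Aldh1a3 and Stra6 have no bar in KO-labelled naive skin, and Crabp2 has 3786 and 2434 reads in the HDM libraries.

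Stra6, the membrane receptor that takes up retinol from its plasma carrier, was close to the detection floor. It had 7 reads in KO-labelled HDM, 6 in WT HDM, 0 in KO-labelled naive and 2 in WT naive skin. The WT HDM to WT naive ratio was 3.06, with a 95% counting interval of 0.548 to 31.0 that includes no difference. KO-labelled HDM skin was at least 2.34-fold higher than KO-labelled naive skin, taking 3 reads as the most that a count of 0 allows. Well-read genes also stood at 0 in the KO-labelled naive library, so a 0 there may stand for more than 3 reads. Each fold called at least that rests on a 0 in that library, here and below, holds only if the 3-read floor does. Of 569 genes within 1 read of Stra6 in WT naive skin, 75.2% were likewise at 0 in the KO-labelled naive library. Stra6 (chr9:58063788-58153996, plus strand, GENCODE M21 on the mm10 build) overlaps Ccdc33 and Gm16131, though not in its last kilobase.

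Crabp2, which hands retinoic acid to its nuclear receptor, was higher in HDM than in naive skin of both genotypes, by more in the KO-labelled pair. Its log2 value was 11.80 in KO-labelled HDM, 11.36 in WT HDM, 9.51 in KO-labelled naive and 10.35 in WT naive skin (3786, 2434, 780 and 1233 reads). Both HDM libraries lay above both naive libraries. KO-labelled HDM skin was 4.87-fold higher than KO-labelled naive skin (95% counting interval 4.51 to 5.27), and WT HDM skin was 2.02-fold higher than WT naive skin (1.88 to 2.16). On the log2 scale the KO-labelled HDM difference exceeded the WT one by 1.27 (counting interval 1.12 to 1.42). This value has no residual degree of freedom and thus no test across libraries. Crabp2 lies on chr3:87948666-87953376, plus strand, and overlaps no other annotated gene.

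The genotype difference of Crabp2 changed sign with treatment. KO-labelled HDM skin was 1.35-fold higher than WT HDM skin (1.29 to 1.43), whereas KO-labelled naive skin was 1.78-fold lower than WT naive skin (1.63 to 1.95). The comparisons share libraries, as the KO-labelled naive library enters both the HDM comparison in KO-labelled skin and the genotype comparison in naive skin.

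Crabp1, the related cytosolic protein that binds retinoic acid, had fewer tags and smaller differences. Its log2 value was 7.95 in KO-labelled HDM, 7.26 in WT HDM, 7.09 in KO-labelled naive and 6.75 in WT naive skin (263, 141, 144 and 101 reads). KO-labelled HDM skin stood highest, and the WT HDM and KO-labelled naive libraries were close to each other. The HDM to naive ratio was 1.83 in KO-labelled skin (1.49 to 2.26) and 1.43 in WT skin (1.10 to 1.86). The KO-labelled to WT ratio was 1.62 under HDM (1.32 to 2.01) and 1.26 in naive skin (0.973 to 1.65), and the last interval includes no difference. Crabp1 lies on chr9:54764748-54773110, plus strand.

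Because both binding protein genes were counted in the same library, their ratio of tags does not depend on the scaling. There were 14.4 Crabp2 tags per Crabp1 tag in KO-labelled HDM skin (12.7 to 16.4) and 17.3 in WT HDM skin (14.6 to 20.6). Naive skin had 5.42 in the KO-labelled library (4.53 to 6.52) and 12.2 in the WT library (9.96 to 15.1). The KO-labelled naive library thus stood apart from the other 3, and the intervals of the HDM libraries overlapped.

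Rdh10 encodes the main enzyme that oxidises retinol to retinal in the mouse embryo. Its log2 value was 7.67 in KO-labelled HDM, 7.79 in WT HDM, 7.89 in KO-labelled naive and 7.70 in WT naive skin (216, 204, 252 and 196 reads). The 4 values spanned 0.22. The HDM to naive ratio was 0.860 in KO-labelled skin (0.714 to 1.04) and 1.06 in WT skin (0.869 to 1.30). The KO-labelled to WT ratio was 0.922 under HDM (0.758 to 1.12) and 1.14 in naive skin (0.942 to 1.38). All 4 intervals include no difference, and none shows that the libraries were alike beyond its bounds. Rdh10 lies on chr1:16105774-16133734, plus strand.

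Dhrs9, a short-chain dehydrogenase with retinol dehydrogenase activity, had few reads in naive skin and more in HDM skin. It had 47 reads in KO-labelled HDM, 102 in WT HDM, 0 in KO-labelled naive and 11 in WT naive skin. Both HDM libraries lay above both naive libraries. KO-labelled HDM skin was at least 15.7-fold higher than KO-labelled naive skin, and WT HDM skin was 9.47-fold higher than WT naive skin (5.07 to 19.6). Under HDM, KO-labelled skin was 2.49-fold lower than WT skin (1.75 to 3.60). In naive skin it was at least 4.14-fold lower in the KO-labelled library, where 66.8% of 340 genes within 1 read of it in WT naive skin were also at 0. Dhrs9 lies on chr2:69380445-69404533, plus strand.

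Aldh1a1, which oxidises retinal to retinoic acid, was lower in HDM skin of both genotypes. Its log2 value was 7.82 in KO-labelled HDM, 6.94 in WT HDM, 8.98 in KO-labelled naive and 7.96 in WT naive skin (240, 113, 540 and 234 reads). KO-labelled HDM skin was 2.24-fold lower than KO-labelled naive skin (1.92 to 2.62), and WT HDM skin was 2.03-fold lower than WT naive skin (1.61 to 2.56). The KO-labelled and WT differences between HDM and naive skin differed by -0.15 on the log2 scale (counting interval -0.54 to 0.24), which includes 0. KO-labelled skin was 1.85-fold higher than WT skin under HDM (1.47 to 2.33) and 2.05-fold higher in naive skin (1.75 to 2.39). Aldh1a1 spans chr19:20492715-20643465, plus strand, and overlaps C730002L08Rik and Gm6684 outside its last kilobase.

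Aldh1a3, another retinal dehydrogenase, had 68 reads in KO-labelled HDM, 59 in WT HDM, 0 in KO-labelled naive and 16 in WT naive skin. The HDM libraries could not be separated, with a KO-labelled to WT ratio whose interval was 0.698 to 1.45, and both lay above the naive ones. WT HDM skin was 3.76-fold higher than WT naive skin (2.14 to 7.01), and KO-labelled HDM skin was at least 22.7-fold higher than KO-labelled naive skin. KO-labelled naive skin was at least 6.02-fold lower than WT naive skin, with 65.2% of 299 genes of like WT naive reads also at 0 there. Aldh1a2, the third retinal dehydrogenase, had 9 reads in KO-labelled HDM, 10 in WT HDM, 0 in KO-labelled naive and 3 in WT naive skin. Its WT HDM to WT naive ratio of 3.40 had an interval of 0.876 to 19.2, and KO-labelled HDM skin was at least 3.01-fold higher than KO-labelled naive skin. Aldh1a3 lies on chr7:66390890-66427517, minus strand, and Aldh1a2 on chr9:71215789-71296243, plus strand, where it overlaps Gm48124.

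Tags of the 3 retinal dehydrogenases were therefore divided differently in HDM and naive skin. Aldh1a1 gave 75.7% of them in KO-labelled HDM skin (exact binomial 95% interval 70.6 to 80.3) and 62.1% in WT HDM skin (54.6 to 69.2). It gave 540 of 540 in KO-labelled naive skin and 92.5% in WT naive skin (88.5 to 95.4). With the 3-read floor a count of 0 allows each other gene up to 0.556% in KO-labelled naive skin, but that floor may not hold in this library. Aldh1a3 gave 21.5% in KO-labelled HDM skin (17.1 to 26.4) and 32.4% in WT HDM skin (25.7 to 39.7), against 6.32% in WT naive skin (3.66 to 10.1). Aldh1a2 gave 2.84% in KO-labelled HDM skin and 5.49% in WT HDM skin, against 1.19% in WT naive skin. These are shares of tags and not of enzyme.

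The windows before the annotated starts of Aldh1a1 and Dhrs9 are shown because these enzyme genes differed between HDM and naive skin in opposite directions. They are RefSeq sequences on GRCm38.p6, 5′ to 3′ on the gene's strand, and end before the first annotated exon base. The Aldh1a1 windows are chr19:20492333-20492582 and chr19:20601718-20601960 and the Dhrs9 window is chr2:69380212-69380444, all on the plus strand. Distances below count to the RefSeq start, which lies 0 and 7 bases past the end of the Aldh1a1 windows and 17 bases past that of Dhrs9. Capitals mark a retinoid receptor half-site on either strand, or TATAAA. The half-sites searched were AGGTCA, its close relative AGTTCA, the further version GGGTCA, and lastly also GGTTCA.
Aldh1a1 first start: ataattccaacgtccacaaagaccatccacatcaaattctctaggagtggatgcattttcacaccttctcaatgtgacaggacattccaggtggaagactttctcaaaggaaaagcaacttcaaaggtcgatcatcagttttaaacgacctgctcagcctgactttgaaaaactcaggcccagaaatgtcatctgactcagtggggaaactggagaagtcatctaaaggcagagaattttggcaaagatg
Aldh1a1 second start: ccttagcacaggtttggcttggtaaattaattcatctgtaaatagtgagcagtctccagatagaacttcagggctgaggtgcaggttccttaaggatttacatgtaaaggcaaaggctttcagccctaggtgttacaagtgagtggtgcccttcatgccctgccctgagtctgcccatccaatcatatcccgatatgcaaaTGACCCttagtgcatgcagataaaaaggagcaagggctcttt
Dhrs9: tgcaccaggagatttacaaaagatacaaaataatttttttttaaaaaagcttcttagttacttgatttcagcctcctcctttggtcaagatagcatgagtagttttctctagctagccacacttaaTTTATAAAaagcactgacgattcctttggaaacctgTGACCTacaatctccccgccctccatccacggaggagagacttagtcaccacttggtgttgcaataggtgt
The second Aldh1a1 start has GGGTCA on the opposite strand 49 bases before it, and Dhrs9 has AGGTCA on the opposite strand 88 bases before its start. Dhrs9 also has overlapping TATAAA matches on both strands, 124 and 122 bases before the start. Of 32851 promoter windows of 250 bases, 14.0% hold AGGTCA and 11.6% hold GGGTCA. At least 1 of the 4 half-sites is in 38.6% of them, and TATAAA in 12.4%. Promoter entries matched 6 members with 10 starts, and none of those windows held half-sites repeated in 1 direction with 1, 2 or 5 bases between them. Nor did any hold the EGR1 motif GCGTGGGCG or its variant GCGGGGGCG, which 3.06% of all windows hold on either strand. A match or its absence describes these letters only.

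Cyp26b1, which clears retinoic acid, carried the most tags of the 9 genes. Its log2 value was 11.90 in KO-labelled HDM, 11.61 in WT HDM, 12.40 in KO-labelled naive and 12.67 in WT naive skin (4075, 2899, 5785 and 6188 reads). Both HDM libraries lay below both naive libraries. KO-labelled HDM skin was 1.42-fold lower than KO-labelled naive skin (1.36 to 1.47), and WT HDM skin was 2.09-fold lower than WT naive skin (2.00 to 2.19). The KO-labelled HDM difference lay 0.56 above the WT one on the log2 scale (counting interval 0.48 to 0.65). KO-labelled skin was 1.22-fold higher than WT skin under HDM (1.17 to 1.28) and 1.21-fold lower in naive skin (1.16 to 1.25). Cyp26b1 spans chr6:84571414-84593908, minus strand, and the sequence before its first annotated exon, chr6:84593909-84594060 on the minus strand, is given because it was the breakdown enzyme of the set.
Cyp26b1: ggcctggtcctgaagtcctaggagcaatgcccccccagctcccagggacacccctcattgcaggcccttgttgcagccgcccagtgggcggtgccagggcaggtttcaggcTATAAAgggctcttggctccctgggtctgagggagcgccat
The capitals are a TATAAA on the gene's own strand, 139 bases before the RefSeq start, which lies 98 bases past the end of the print, and the window of 250 bases holds no half-site.

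Crabp2 tags per Cyp26b1 tag put the binding protein beside the breakdown enzyme within each library. The ratio was 0.929 in KO-labelled HDM skin (0.889 to 0.971) and 0.840 in WT HDM skin (0.795 to 0.886), against 0.135 in KO-labelled naive skin (0.125 to 0.145) and 0.199 in WT naive skin (0.187 to 0.212). Both HDM libraries were far above both naive ones. Aldh1a1 tags per Rdh10 tag were 1.11 in KO-labelled HDM skin (0.921 to 1.34) and 0.554 in WT HDM skin (0.436 to 0.700), against 2.14 in KO-labelled naive skin (1.84 to 2.50) and 1.19 in WT naive skin (0.983 to 1.45). The KO-labelled HDM and WT naive libraries could not be separated on this ratio. In whole skin, fewer cells of a type and less RNA per cell cannot be told apart in any of these values.

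**Figure D3:**
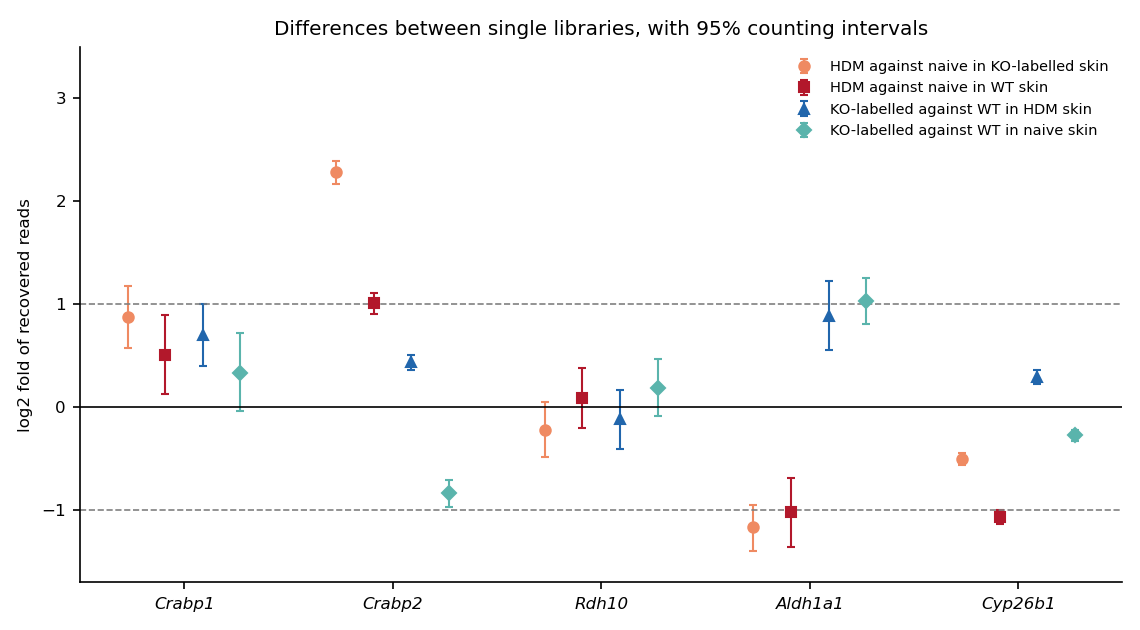
Log2 fold of recovered reads (y axis) for the 5 members above the expression filter (x axis) in the 4 comparisons of single libraries, with 95% counting intervals as bars and dashed lines at 2-fold. Crabp2 lies highest, in the HDM comparison of KO-labelled skin, and Rdh10 stays near 0 in all 4 comparisons.

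Set against all 11624 genes above the filter, the members' differences were of a common size. In the HDM comparison in KO-labelled skin, 2 of the 5 members were past 2-fold, where 40.0% of all genes were. They were Crabp2, higher as were 21.8% of genes, and Aldh1a1, lower as were 18.3%. In WT skin 3 members were past 2-fold, where 27.3% of all genes were. They were Crabp2, higher as were 14.5% of genes, and Aldh1a1 and Cyp26b1, lower as were 12.8%. In WT skin the log2 differences of Crabp2 (1.01) and Aldh1a1 (-1.02) lay close to the limit, and Crabp2 dropped to 0.94 with upper-quartile scaling and Aldh1a1 to -0.96 with log2(x + 10). For KO-labelled against WT, 0 of 5 members were past 2-fold under HDM, where 7.73% of all genes were (3.06% higher, 4.67% lower). In naive skin 1 of 5, Aldh1a1, was higher, where 30.8% of all genes were past 2-fold, 13.7% higher and 17.1% lower. Crabp2 was past 2-fold upward in both HDM comparisons, as 7.07% of genes were, and Aldh1a1 downward in both, as 6.74% were. Past 2-fold in both genotype comparisons were 0 members, and 0.74% of all genes upward and 0.998% downward. The median log2 difference of the 5 members was -0.22 between HDM and naive in KO-labelled skin and 0.09 in WT skin, beside 0.06 and 0.03 over all genes. Between KO-labelled and WT it was 0.44 under HDM and 0.19 in naive skin, beside -0.01 and -0.03. These counts stand on 5 genes and single libraries.

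An additive model of treatment and genotype (limma with trend, Benjamini-Hochberg adjustment over all 11624 genes) was the one fit that left a degree of freedom, 1 per gene, besides the variance shared between genes. Its HDM term called 478 genes, or 4.11%, a count that fell to 15 without the trend and 0 without the expression filter. Crabp2 was the 1 member called, with a log2 difference of 1.65 (SE 0.38, limma adjusted p = 0.0485), and both genotypes showed its direction. That call was lost without the trend (adjusted p = 0.325), with robust moderation (0.0583) and without the expression filter (0.558), and held with log2(x + 10) (0.0315) and in genes with reads in every library (0.0115). Cyp26b1 (-0.78, SE 0.32, limma adjusted p = 0.215) and Aldh1a1 (-1.09, SE 0.49, adjusted p = 0.254) did not pass. Crabp1 (0.69, SE 0.60, limma adjusted p = 0.564) and Rdh10 (-0.07, SE 0.51, adjusted p = 0.966) did not either. The genotype term called 0 genes (0.0%), with 382 at an unadjusted limma p under 0.05 and 2 called with log2(x + 10) or in genes with reads in every library. Aldh1a1 had the largest genotype term of the members, 0.96 (SE 0.49, limma adjusted p = 1, unadjusted 0.0836). The calls of other pathway genes given below (Fabp5, Adh1, Ppard, Rora and Hbegf) were likewise all lost without the trend (limma adjusted p = 0.284 to 0.310) and without the filter (0.491 to 0.579). With robust moderation Adh1 alone of these was lost (limma adjusted p = 0.0502). The model assumes equal HDM differences in both genotypes, and Crabp2 departed from that by the 1.27 given above. Such inequality between genotypes is the only residual of the fit. The SEs and p-values here and below therefore measure it, with variance shared between genes, and not spread between animals. Sex-linked transcripts split with treatment, so the HDM term cannot tell their part from that of HDM.

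The other genes of the pathway were read from 5 lists, and Lrat, Dhrs3, Cyp26a1, Rarb and Nrip1 stand both in the list of retinoic acid targets and in another. Beside the counts past 2-fold below, 21.8% of all 11624 genes were higher and 18.3% lower in the KO-labelled HDM comparison. In the WT one 14.5% were higher and 12.8% lower. Of 7 transport and storage genes above the filter, 2 were higher and 2 lower past 2-fold in HDM than in naive KO-labelled skin, and 2 higher and 2 lower in WT skin. Only Rbp2, higher, and Rbp4, lower, were so in the same direction in both pairs. Rbp2, the intestinal-type retinol binding protein, was higher in HDM skin, with 187 and 147 reads in the KO-labelled HDM and WT HDM libraries against 45 and 20 in the KO-labelled naive and WT naive libraries. Rbp4, the plasma carrier of retinol, went the other way. It had 150 and 117 reads in the KO-labelled HDM and WT HDM libraries, against 1032 and 306 in the KO-labelled naive and WT naive libraries. Lrat, which stores retinol as esters, lay under the filter with 63 and 17 reads in the KO-labelled HDM and WT HDM libraries and 0 in both naive libraries. It was at least 21.1-fold higher in HDM than in naive KO-labelled skin and at least 5.78-fold higher in WT skin. Rlbp1, a retinal binding protein known from the eye, lay under the filter too and went the opposite way, with 0 reads in both HDM libraries against 208 in KO-labelled naive and 126 in WT naive skin. It was at least 69.1-fold lower in HDM than in naive KO-labelled skin and at least 41.1-fold lower in WT skin. Ttr, the plasma partner of Rbp4, differed in opposite directions in the 2 genotypes, with 17 reads in KO-labelled HDM and 201 in WT HDM skin, and 146 in KO-labelled naive and 20 in WT naive skin. Rlbp1 and Ttr were named after their values were seen.

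Of 13 genes of retinol and retinal oxidation and reduction, 4 were higher and 2 lower past 2-fold in HDM than in naive KO-labelled skin, and 0 higher and 6 lower in WT skin. Adh1, an alcohol dehydrogenase that also oxidises retinol, had 552 and 317 reads in the KO-labelled HDM and WT HDM libraries, against 1282 and 1692 in the KO-labelled naive and WT naive libraries. HDM skin was 2.32-fold lower in the KO-labelled pair (2.09 to 2.56) and 5.23-fold lower in the WT pair (4.63 to 5.91), and Adh1 fell by 1.80 in the additive model (SE 0.40, limma adjusted p = 0.0439). Sdr16c6, a short-chain dehydrogenase, had 13 and 23 reads in the KO-labelled HDM and WT HDM libraries, against 138 and 113 in the KO-labelled naive and WT naive libraries. Dhrs3, which reduces retinal back to retinol, split by genotype. It had 687 reads in KO-labelled HDM and 594 in KO-labelled naive skin, a ratio of 1.16 (1.04 to 1.30), but 307 in WT HDM and 1071 in WT naive skin, where HDM skin was 3.42-fold lower (3.01 to 3.89). The 4 genes higher in the KO-labelled pair were Rdh1, Rdh9, Rdh11 and Rdh12, and each was lowest in the KO-labelled naive library. Rdh11 had 196 reads in KO-labelled HDM skin and 0 in KO-labelled naive skin, beside 115 in WT HDM and 217 in WT naive skin. In the order KO-labelled HDM, WT HDM, KO-labelled naive and WT naive, Rdh1 had 363, 247, 181 and 375 reads. Rdh9 had 371, 284, 142 and 342, and Rdh12 had 754, 763, 174 and 682. None of them was higher past 2-fold in WT HDM than in WT naive skin. These 4 names were given after their values were seen.

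Breakdown and delivery were read from 3 genes above the filter, of which 1 was higher and 1 lower past 2-fold in the KO-labelled HDM comparison and 1 higher and 0 lower in the WT one. Fabp5, which carries retinoic acid to the receptor PPARD, had 15157 and 12940 reads in the KO-labelled HDM and WT HDM libraries, against 4208 and 4868 in the KO-labelled naive and WT naive libraries. It rose in the additive model by 1.65 (SE 0.32, limma adjusted p = 0.0267). Fabp4, the adipocyte relative, was the gene of these lists past 2-fold upward in both genotype comparisons, with 6868 reads in KO-labelled HDM and 2761 in WT HDM skin, and 27753 in KO-labelled naive against 5615 in WT naive skin. Cyp26a1, a further retinoic acid hydroxylase, had 8, 4, 0 and 5 reads in the KO-labelled HDM, WT HDM, KO-labelled naive and WT naive libraries. Fabp4 is itself 1 of the adipocyte markers, and 5 of 8 adipocyte markers above the filter were higher past 2-fold in KO-labelled than in WT skin under HDM and 6 of 8 in naive skin. Of all genes above the filter 3.06% and 13.7% were. Fabp4 is counted among the markers each time. Summed as RPM (reads per 1000000 gene reads of the library), the adipocyte list came to 1615 in KO-labelled HDM and 759 in WT HDM skin, and to 5569 in KO-labelled naive and 1459 in WT naive skin. Fabp4 itself made up 680, 293, 2796 and 585 RPM of these sums, in the same order, so they are not independent of it. Plin1 stood at 0 in the KO-labelled naive library, and the list's part in the Fabp4 values was not tested.

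Among 12 receptors and coregulators, 2 were higher and 1 lower past 2-fold in HDM than in naive KO-labelled skin, and 1 higher and 1 lower in WT skin. Rarg, the retinoic acid receptor best known from epidermis, had 1008 and 1091 reads in the KO-labelled HDM and WT HDM libraries, against 728 and 960 in the KO-labelled naive and WT naive libraries. Its shared partner Rxra had 1655 and 1690 reads in the KO-labelled HDM and WT HDM libraries, against 1952 and 1999 in the KO-labelled naive and WT naive libraries. Both stayed within 2-fold throughout. Rara, another retinoic acid receptor, had 381 and 282 reads in the KO-labelled HDM and WT HDM libraries, against 47 and 247 in the KO-labelled naive and WT naive libraries, so that 1 library stood apart. Rarb had 22, 21, 0 and 13 reads in the same order. Ppard had 591 and 647 reads in the KO-labelled HDM and WT HDM libraries, against 117 and 144 in the KO-labelled naive and WT naive libraries, and rose by 2.26 in the additive model (SE 0.46, limma adjusted p = 0.0324). Rora, an orphan receptor, fell by 1.83 (SE 0.31, limma adjusted p = 0.0144), with 1874 and 2054 reads in the KO-labelled HDM and WT HDM libraries against 6388 and 7838 in the KO-labelled naive and WT naive libraries.

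Of 9 genes known as retinoic acid targets, 2 were higher and 2 lower past 2-fold in HDM than in naive skin of each genotype. The higher ones were Rarres2 and Hbegf in both. The lower ones were Meis1 and Meis2 in KO-labelled skin, but Dhrs3 and Rarres1 in WT skin. Rarres1 was 19.2-fold lower in the WT pair (422 against 8279 reads) and 1.72-fold lower in the KO-labelled pair (1764 against 3044 reads). Meis1, Meis2 and Rarres1 were named after their values were seen. Rarres2, the precursor of chemerin, had 1465 and 1534 reads in the KO-labelled HDM and WT HDM libraries, against 693 and 332 in the KO-labelled naive and WT naive libraries. Hbegf, an epidermal growth factor receptor ligand, had 642 reads in each HDM library, against 164 in KO-labelled naive and 110 in WT naive skin, and rose by 2.27 in the additive model (SE 0.47, limma adjusted p = 0.0332). The medians of the 5 lists lay between -0.79 and 0.38 for HDM against naive in KO-labelled skin and between -0.94 and 0.41 in WT skin. Between KO-labelled and WT skin they lay between -0.24 and 0.36 under HDM and between -0.73 and 0.94 in naive skin.

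**Figure D4:**
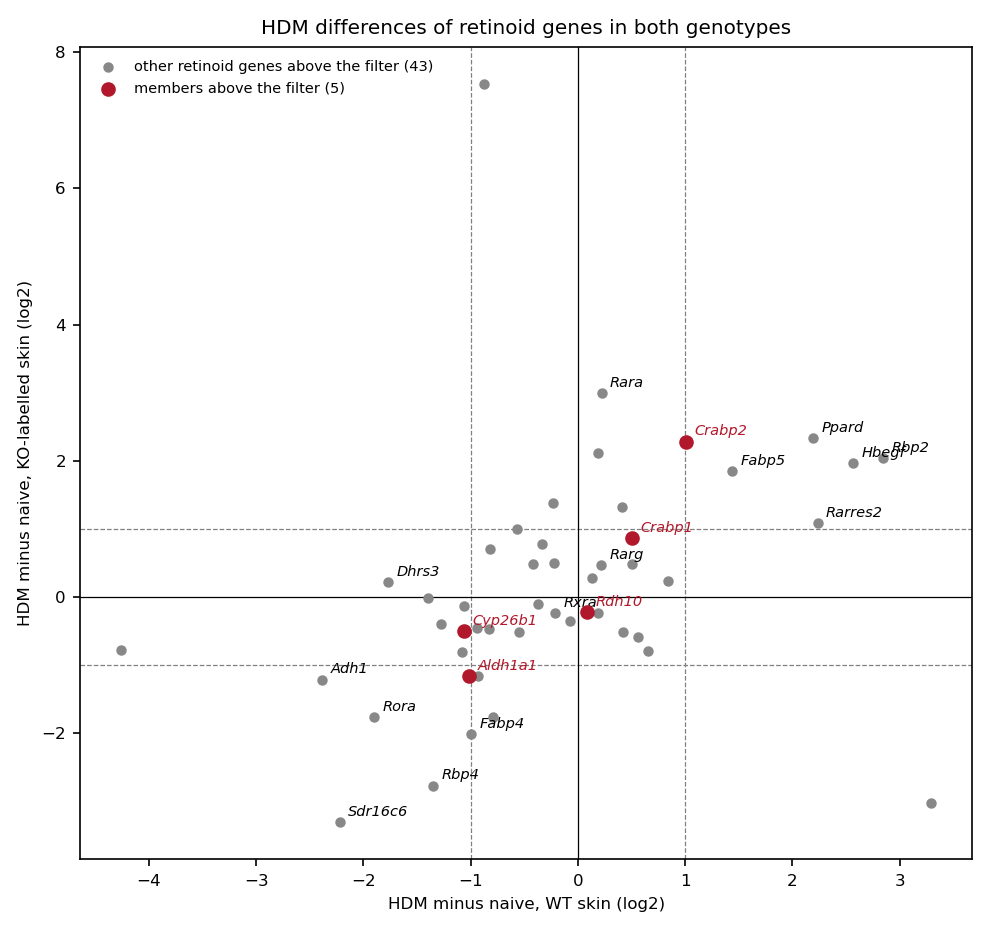
Log2 difference between HDM and naive skin in KO-labelled skin (y axis) against that in WT skin (x axis) for 43 other retinoid genes (grey) and 5 members (red), 1 point per gene, with dashed lines at 2-fold. Rbp2, Ppard, Hbegf, Fabp5 and Crabp2 lie in the upper right, and Adh1, Rora, Rbp4, Sdr16c6 and Aldh1a1 in the lower left.

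Markers of skin cell types, and of salivary and lacrimal glands, differed between the same libraries and often by more than the members did. Over all 11624 genes, 21.8% were higher and 18.3% lower past 2-fold in the KO-labelled HDM comparison, and 14.5% and 12.8% in the WT one. All 10 activated keratinocyte markers were higher past 2-fold in both HDM comparisons, and the list summed to 37148 and 46661 RPM in the KO-labelled HDM and WT HDM libraries, against 164 and 442 in the KO-labelled naive and WT naive libraries. All 12 hair shaft and root sheath markers above the filter were higher in both as well, with 7446 and 2950 RPM in the KO-labelled HDM and WT HDM libraries against 64.6 and 42.2 in the KO-labelled naive and WT naive libraries. Of the whole hair list of 16, Krt72 was at 0 in all 4 libraries, and 10 genes were at 0 in KO-labelled naive skin. Salivary and lacrimal markers went the other way, 8 of 9 being lower in each HDM comparison. They summed to 15.8 and 74.4 RPM in the KO-labelled HDM and WT HDM libraries, against 8336 and 72655 in the KO-labelled naive and WT naive libraries. Of the whole salivary list of 14, 10 and 3 genes were at 0 in the KO-labelled HDM and WT HDM libraries, Smr2, Prol1 and Sult1e1 in both, and 5 and 2 in the KO-labelled naive and WT naive libraries. The fibroblast list summed to 6004 and 7564 in the KO-labelled HDM and WT HDM libraries, against 42102 and 19885 in the KO-labelled naive and WT naive libraries, with 9 of 13 markers lower in the KO-labelled HDM comparison, and 3 higher and 4 lower in the WT one. Their part in the Crabp2, Aldh1a1 and Cyp26b1 differences was not tested.

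Some of the remaining marker lists went 1 way between HDM and naive skin, and others were mixed. Of all genes above the filter, 3.06% were higher and 4.67% lower past 2-fold in KO-labelled than in WT skin under HDM. The sebaceous list, which bears on a site of retinoid storage, had 4 of 13 markers higher and 3 lower in the KO-labelled HDM comparison and 0 higher and 8 lower in the WT one, and 8 were higher in KO-labelled than in WT skin under HDM. It summed to 4858 and 2089 RPM in the KO-labelled HDM and WT HDM libraries, against 10497 and 9612 in the KO-labelled naive and WT naive libraries. Dermal papilla markers had 4 of 7 lower and 0 higher in each HDM comparison. Cartilage markers had 6 of 6 lower in the KO-labelled one and 5 of 6 in the WT one, with 0 higher in either. All 6 were also lower past 2-fold in KO-labelled than in WT skin under HDM. Cartilage markers summed to 6.83 RPM in KO-labelled HDM skin and 1529 in WT HDM skin, with Col2a1, Col9a1, Col11a2, Matn1 and Matn3 at 0 in the first, and to 2324 in KO-labelled naive and 2705 in WT naive skin. In the KO-labelled HDM comparison, lower markers numbered 3 of 9 basal keratinocyte, 5 of 11 suprabasal keratinocyte, 5 of 7 dendritic and Langerhans cell, 3 of 10 macrophage, 6 of 8 adipocyte, 2 of 9 skeletal muscle and 0 of 5 melanocyte markers, and higher ones 3, 1, 0, 0, 1, 1 and 1 of the same lists. In the WT HDM comparison they numbered 4, 3, 2, 0, 3, 2 and 2 of the same lists, and higher ones 2, 5, 0, 5, 0, 1 and 0. The part of these lists in the retinoid values was not tested.

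Genes whose profile over the 4 libraries was nearest to a member were found by the distance between log2 values centred on their mean. Crabp2 was nearest to Cog8 (0.10), Fads3 (0.12) and Cdyl (0.15), with 141 genes within 0.5. For Aldh1a1 the nearest were Wdr76 (0.10), Mipep (0.11) and Pfkfb2 (0.12), with 157 genes within 0.5. Cyp26b1 lay nearest to Pigp, Capn7 and Mark2 (0.07 to 0.09, 818 genes within 0.5) and Crabp1 to Ppp2r1b, 4632415L05Rik and Tmtc3 (0.07 to 0.14, 309 genes). The flat profile of Rdh10 had 1919 genes within 0.5, led by Atg101, Ndufa10 and Prkcz. With 4 libraries many genes share a profile, and no common function is read from it.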

How the data were processed

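Lexogen QuantSeq 3′ libraries were made from 500 ng of total RNA per library, per the labels' protocols. The authors deposited 1 table of log2 values per library. The submitters' processing notes name Bowtie2 and bedtools, with build mm10; how values were normalized, annotated or filtered is not given in the sources used here. Of 23282 symbols, 35 that occur on 79 lines were left out, leaving 23203. Values were turned back to x by 2 to the power of the value, minus 1, and reads were recovered from the step of each library (0.936 to 1.078).

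The sizes compared were differences of the deposited log2 values, with folds and exact 95% counting intervals from the recovered reads at the deposited scaling, and a floor of 3 reads for a count of 0. That floor takes a 0 as a counting limit and may not hold in the KO-labelled naive library. Past 2-fold means a log2 difference of 1 or more. Genes had to exceed the median mean log2 value. limma 3.58.1 in R 4.3.3 fitted treatment plus genotype with trend over all genes above the filter. The fit was checked on simulated counts with equal HDM differences in both genotypes and no loss of low values in any library. That check therefore does not cover these features of the data. The remaining steps used Python 3.11.15, with matplotlib 3.10.9, scipy 1.17.1, pandas 2.3.3 and numpy 2.4.6. Count tests were not run, as the deposited unit is log2. Positions are from GENCODE on mm10 and promoter windows from RefSeq.

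Named genes were the members, 8 fixed pathway genes, pathway genes above the filter and past 2-fold in 1 direction in both HDM or both genotype comparisons, the 3 nearest profiles of each member, and Egr1. Some pathway genes are not reported here and stand in no list. The members and lists were chosen with earlier results of these data known. Alternatives were other scalings, pseudocounts, filters and fold limits.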

Additional observations from a re-analysis of the deposited data

Results flagged for a closer look

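Several retinoid genes had a KO-labelled to WT difference of 1 sign under HDM and the other sign in naive skin. Changes of sign, here and in the HDM comparison below, were searched among members and genes named by rule only. Their share among all genes was not counted, so they cannot be read as particular to retinoid genes. Each value below is a log2 difference between single libraries, and the difference between treatments was not tested. For Crabp2 it was 0.44 under HDM and -0.83 in naive skin, and for Cyp26b1 it was 0.29 and -0.27. Dhrs3 had 0.96 under HDM and -1.02 in naive skin, Rara had 0.23 and -2.54, and Adh1 had 0.60 and -0.57. The order of signs was the reverse for Rarres2, at -0.27 under HDM and 0.89 in naive skin, and for Hbegf, at -0.20 and 0.40. The naive values all use the KO-labelled naive library, the one with many genes at 0 reads.

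Dhrs3 and Egr1 differed in sign between genotypes in the HDM comparison. The HDM minus naive difference of Dhrs3 was 0.21 in KO-labelled skin and -1.77 in WT skin. For Egr1 it was 0.15 in KO-labelled skin and -0.71 in WT skin. Neither contrast was tested.

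Outside the genes named by rule, Ttr and Rarres1 were picked out after their values were seen. The KO-labelled minus WT difference of Ttr was -3.68 under HDM and 2.64 in naive skin, and its HDM minus naive difference was -3.02 in KO-labelled skin and 3.30 in WT skin. For Rarres1 the KO-labelled minus WT difference was 1.86 under HDM and -1.62 in naive skin. These contrasts were not tested.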

How the results depend on the processing

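The 5 members above the expression filter kept the sign of their log2 differences in all 4 comparisons under 7 scalings and pseudocounts. The sizes moved, and the counting intervals were not recomputed. In the WT HDM comparison 3 members past 2-fold became 2 with log2(x + 10), where Aldh1a1 dropped to -0.96, and 2 with upper-quartile scaling or without Rn45s and salivary genes, where Crabp2 dropped to 0.94. Of all genes 25.0% to 27.4% were past 2-fold there. With no filter, 50 reads in 1 library and 4-fold, that count became 7, 5 and 0 (30.3%, 31.1% and 6.31% of all genes), and the 2 members of the KO-labelled HDM comparison became 6, 4 and 1 (38.0%, 46.3% and 14.5%). For KO-labelled against WT under HDM, 0 became 1 with no filter (16.7%), 1 with 50 reads (11.2%) and 2 at 1.5-fold (22.1%). In naive skin, 1 became 5 with no filter (31.5%), 3 with 50 reads (37.1%), 2 at 1.5-fold (52.1%) and 0 at 4-fold (9.41%). The gains without the filter come from Dhrs9, Aldh1a2, Aldh1a3 and Stra6, added as genes tested. The member called by the additive HDM term, 1, became 0 without the trend, with robust moderation and with no filter; the cause was not tested. The fit on genes with reads in every library was chosen after seeing the data. No scaling moved the median of all genes past 0.09. No paired analysis was possible because each group held 1 library. Leaving out a library was not run, as it leaves the additive model no residual degree of freedom. Members with under 20 reads in WT naive skin are limited by their few reads. All of them were at 0 in the KO-labelled naive library, which held 9926595 gene reads beside 9591074 in WT naive skin.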
